A study of Mus musculus with 21 samples.

Results

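The genes described here are named for the proteins of the cytosolic ribosome. They were chosen by name alone, as the symbols that begin with Rpl or Rps followed by a number, by "a" or by "p0" to "p2", with the endings a, x, l, l1 and al allowed, and that are listed in all 3 deposited expression tables. This gave 82 genes of 43776 symbols found in all 3 tables, of which 49 belong to the large and 33 to the small ribosomal subunit. Of these, 9 are called paralogues here, because their symbols name them as copies or relatives of another gene of the group, the parent (Rpl22l1, Rpl7l1, Rpl3l, Rpl10l, Rpl39l, Rpl36al, Rps27l, Rps4l and Rps12l1). The name does not mean that each encodes the same ribosomal protein as its parent. The name pattern leaves out pseudogene symbols, merged symbols and ribosomal proteins with other names, such as Fau and Rack1, which is listed under its older symbol Gnb2l1. It does not leave out copies without a coding transcript: the annotation used here lists none for Rps4l and Rps12l1. The group was picked for description because its expression was known to differ between these populations, so its levels, folds and counts are given as a description and no test was made of them.

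A cytosolic ribosome is assembled from ribosomal RNA and one copy of nearly every ribosomal protein, so its protein genes are transcribed at high and similar levels in most growing cells. The mRNAs of these genes are known for a start of transcription at a C followed by a run of pyrimidines, the terminal oligopyrimidine or TOP motif, through which the kinase complex mTORC1 controls their translation. In skin, protein synthesis is known to be low in quiescent hair follicle stem cells and higher in their dividing progeny.

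The study holds 21 mouse libraries of polyadenylated RNA in 7 groups of 3. For 9 wild-type libraries, the groups are hair follicle stem cells (HFSCs) purified by flow sorting, total epidermal cells, and HFSCs from culture. The other 12 libraries come from 3C cultures, in which total epidermal cells were kept for 10 to 14 days in a medium made for HFSCs; their genotype is not given in the labels. They are the CD34+ α6+ and CD34neg α6+ fractions of these cultures, where CD34 and α6 integrin are surface proteins used to sort HFSCs, and cultures kept for 48 h with cyclopamine, a Hedgehog pathway inhibitor, or dorsomorphin, a BMP receptor inhibitor. Each table gives 1 FPKM value per population (a level scaled for transcript length and for the number of sequenced fragments), estimated by the authors over its libraries, and no value per library. The first table has the columns CD34a6, HFSC and bulk. The column bulk was read as total epidermis. CD34a6 and HFSC stay as column names, because the labels leave it unsaid which is the sorted and which the cultured population. Cd34 itself was listed at 327 FPKM in CD34a6, 8.70 in HFSC and 10.6 in bulk, and the bulge keratin gene Krt15 at 9923, 37.9 and 4791, so both of these bulge markers were below the bulk level in the HFSC column. The second table compares the CD34+ with the CD34neg fraction and the third dorsomorphin with cyclopamine. In the second table the name 3C_HFSC was read as the CD34+ fraction, from the description of its groups. Nothing in the labels ties the 3 libraries of a group to separate animals or cultures, and the authors' p-values measure the spread between those libraries, which may be technical. Because each table has its own normalisation, folds are taken within a table, and levels set side by side across tables are not on 1 scale. Keratinocyte markers were high in all tables: Krt5, Krt14, Krt15, Cd34, Itga6 and Trp63, 6 markers, summed to 8172 to 18435 FPKM in the 7 populations. This sum does not tell HFSCs from other keratinocytes. In the HFSC column it was 15684 FPKM and rested on markers other than Cd34 and Krt15.

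The sequences around the transcription start are shown because the pyrimidine run there is the feature that the mRNAs of these genes are known to share. RefSeq start sites on build GRCm38.p6 were found for 60 of the 82 genes. Each line gives the 15 bases before and the 15 bases from the start, 5′ to 3′ on the strand of the gene, with the longest unbroken run of C and T in capitals.
Rplp2 (chr7:141447636-141447665, plus strand): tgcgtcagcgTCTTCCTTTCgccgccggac
Rpl15 (chr14:18270972-18271001, minus strand): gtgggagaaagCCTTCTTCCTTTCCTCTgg
Rps6 (chr4:86857353-86857382, minus strand): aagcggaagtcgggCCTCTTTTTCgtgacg
Rps10 (chr17:27635230-27635259, minus strand): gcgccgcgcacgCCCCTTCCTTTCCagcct
Rpl7a (chr2:26910792-26910821, plus strand): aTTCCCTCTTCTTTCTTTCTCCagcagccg
Rps27 (chr3:90213634-90213663, minus strand): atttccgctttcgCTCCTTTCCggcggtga
Rps27l (chr9:66946071-66946100, plus strand): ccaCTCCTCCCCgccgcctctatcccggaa
Rpl22 (chr4:152325711-152325740, plus strand): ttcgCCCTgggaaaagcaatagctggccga
Rpl22l1 (chr3:28805493-28805522, plus strand): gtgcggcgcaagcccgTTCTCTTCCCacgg
Rpl34 (chr3:130730384-130730413, minus strand): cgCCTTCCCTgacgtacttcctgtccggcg
Rpl36al (chr12:69184053-69184082, minus strand): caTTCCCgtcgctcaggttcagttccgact

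The first 4 of these genes and Rps27 carry a run that spans the start site and have a C at the start itself followed by 4 pyrimidines. Rpl7a has the longest run of the 60 genes, 21 bases, but RefSeq places its start at a T within it. The parent Rps27 carries such a run across its start, whereas the run of its paralogue Rps27l lies before the start. In Rpl22l1 the run follows the start, and in Rpl22, Rpl34 and Rpl36al no run spans it.

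A C at the annotated start followed by 4 pyrimidines was found at 13 of 72 listed start sites of these genes (18.1%), against 2.51% of 32851 start sites of all genes in the RefSeq table. A C followed by 7 pyrimidines within 25 bases of the start, on the strand of the gene, was found at 44.4% of their start sites, against 15.5% of all. In the whole window of 250 bases before and 50 after the start, CCGGAAG, the core letters bound by ETS-family factors, was found on either strand at 36.1% of their start sites and at 8.86% of all. GCCATNTT, the core letters of the YY1 motif, was found on either strand at 20.8% against 6.05%. By contrast, CACGTG was found at 9.72% against 7.15%, CCAAT at 27.8% against 37.4% and TATAAA at 9.72% against 13.6%, each on either strand. The pair of pyrimidine patterns overlap each other, none of the other patterns contains another whole, and a match describes letters and not a bound site.

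The ETS-type letters stood within 30 bases before the start in 5 genes. The 30 bases before the start are printed for 3 of the 4 genes in which the match lies on the strand of the gene, with the match in capitals.
Rpl37 (chr15:5116583-5116612, plus strand): agacccgCCGGAAGtagtttcctgggcgga
Rpl38 (chr11:114668550-114668579, plus strand): ggttaaccgtCCGGAAGcggaagcctcgtt
Rps21 (chr2:180257349-180257378, plus strand): tgacCCGGAAGcacttaccgaggacccgcc
Rpl38, whose protein is known for a role in the translation of Hox mRNAs, has a TOP-type start downstream of this match, and so do Rps21 and Rps10, whereas Rpl37 does not.

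The folds of genes with and without the TOP-type start lay close together. With a C and 4 pyrimidines at the start, the 12 tested genes had a median log2 fold of -2.19 for CD34a6 over bulk, against -2.11 for the 41 genes without. For CD34+ over CD34neg the medians were -1.13 and -1.07, and for dorsomorphin over cyclopamine -0.25 and -0.20. All log2 folds given here are log2 of the ratio of FPKM values after 1 FPKM was added to both, which understates the change of low genes.

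In the first table, the ribosomal protein genes were highest in bulk epidermis, lower in HFSC and lowest in CD34a6. They held 15.4% of the summed FPKM of all loci in bulk, 9.77% in HFSC and 6.76% in CD34a6. In the second table their share was 17.7% in the CD34neg and 11.6% in the CD34+ fraction. In the third it was 9.63% with cyclopamine and 9.26% with dorsomorphin. Among the 100 loci of highest FPKM, 33 were ribosomal protein genes in bulk, 29 in HFSC and 27 in CD34a6, while the CD34neg and CD34+ fractions had 48 and 38 and the cyclopamine and dorsomorphin cultures 32 and 28.

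**Figure D1:**
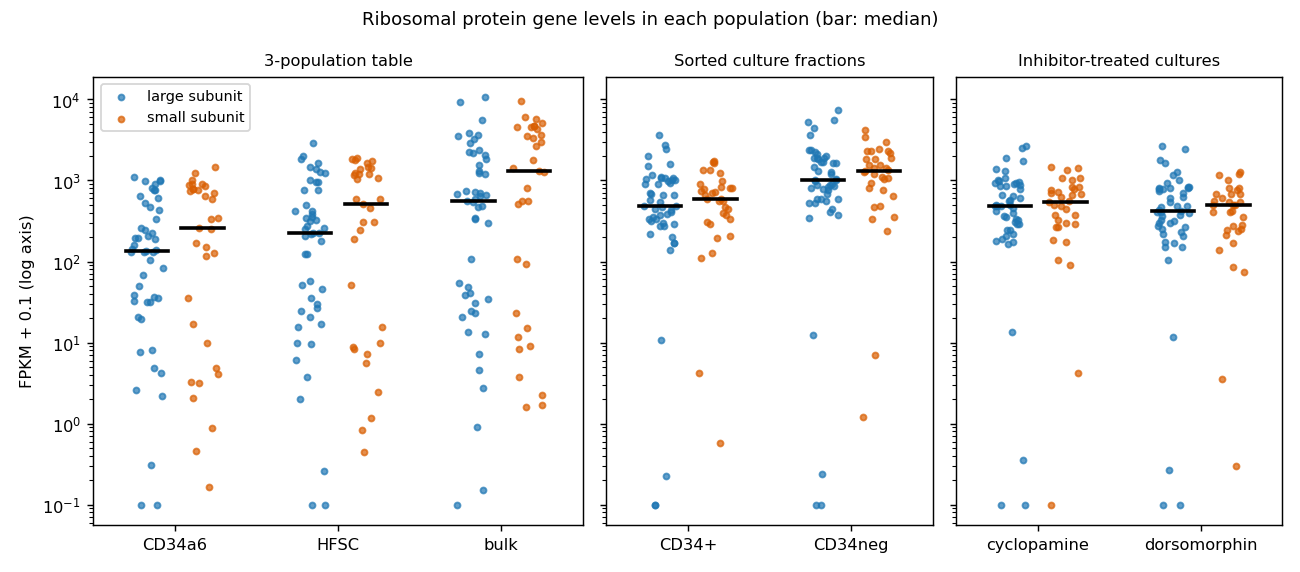
FPKM plus 0.1 (log axis) of the 82 ribosomal protein genes in each of the 7 populations, in 3 panels for the 3 tables; each point is 1 gene and black bars are medians of the large (blue) and small (orange) subunit. Medians lie at 136 and 257 FPKM in CD34a6 and at 562 and 1302 in bulk, and a second cloud of genes below 100 FPKM is seen in the first table.

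The genes of highest level differed between the tables. Averaged over the first table, the 4 highest were Rplp1, Rps14, Rplp0 and Rps15, whose proteins sit in the stalk (Rplp0, Rplp1) and in the small subunit. Rplp1 was listed at 1090 FPKM in CD34a6, 2870 in HFSC and 10584 in bulk, and Rps14 at 1467, 1763 and 9481. In the table of culture fractions the 4 highest were Rpl31, Rpl10a, Rpl10 and Rpl41. There Rpl31, a protein at the rim of the tunnel through which the new peptide leaves, was at 3638 FPKM in CD34+ and 7372 in CD34neg cells, and Rpl10, which completes the large subunit, at 2706 and 5242. Rpl10 was also the highest in the inhibitor table, with 2638 FPKM under cyclopamine and 2655 under dorsomorphin.

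In the first table the levels were split at 100 FPKM, a limit chosen after the values were seen. There, 53 genes had a mean of 100 FPKM or more over the 3 populations and 29 had less. The nearest to the limit were Rpl27a at 66.4 and Rpl3 at 168 FPKM. Of these 29, 6 were paralogues that were also under 100 FPKM in the culture fractions (Rpl10l, Rpl3l, Rpl39l, Rps12l1, Rps4l and Rpl7l1). The other 23 were listed at means of 0.861 to 66.4 FPKM (median 9.92) in the first table but at 273 to 5505 FPKM (median 1075) in the culture fractions. Among them were Rps6, the substrate of S6 kinase, Rpl5 and Rpl11, which form a complex with 5S ribosomal RNA that can bind Mdm2, Rps27a, made as a fusion with ubiquitin, and Rpl38.

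Rps6 shows the size of this gap. It was listed at 1.96 FPKM in CD34a6, 2.33 in HFSC and 3.61 in bulk, but at 1245 FPKM in CD34+ and 2292 in CD34neg cells. Rpl31 was at 19.5, 35.7 and 47.8 FPKM in the first table, although it was the highest of all 82 genes in the second. The folds of these 23 genes in the first table are therefore given separately.

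The sequences of these 23 genes were more often shared with other genes. Of all stretches of 50 bases in a gene's annotated transcripts, the share that was also found in transcripts of another gene had a median of 46.2% in the 23 genes (range 20.6% to 85.5%). For most genes the others that shared sequence were mainly pseudogenes, with exceptions such as Rpl23, Rps13 and Rps16. In the other 50 genes that are no paralogues the median share was 28.1% (range 0% to 81.2%). Across the 73 genes, Spearman's rho between this share and the mean FPKM was -0.44 in the first table, 0.03 in the culture fractions and 0.05 in the inhibitor table. This correlation is a description across genes of 1 family, which share sequence features and libraries. The 9 libraries of the first table were aligned and quantified with other programs than the 12 libraries of the other tables, per the submitters' processing notes. The part of shared sequence and of the programs in the low values was not tested.

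**Figure D2:**
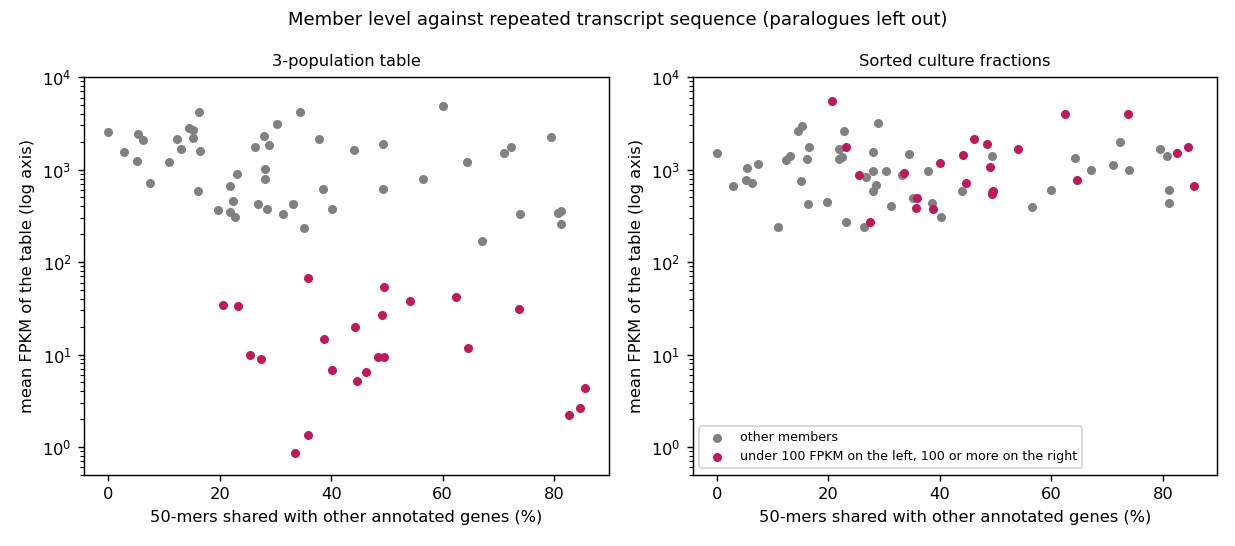
Mean FPKM (log axis) of 73 ribosomal protein genes against the percentage of their 50-base stretches that also occur in transcripts of other annotated genes, in the first table (left) and in the culture fractions (right). The 23 genes in magenta lie under 100 FPKM on the left, at a median of 9.92 FPKM, and among the other genes on the right, at a median of 1075 FPKM.

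Between CD34a6 and bulk, nearly the whole group was lower in CD34a6. Of 80 tested genes, the authors' deposited table called 65 lower and 0 higher at an adjusted p under 0.05, where 24.3% of all 14441 tested loci were called lower and 22% higher. At an unadjusted p under 0.05 the deposited counts were 68 and 0. The share of all tested loci at that unadjusted limit was not counted for any pair or list given here. The median log2 fold was -2.05 (interquartile range -2.34 to -1.29), while the median of all tested loci was 0.00. The small subunit had a median of -2.27 and the large subunit of -1.83. Among the 53 genes of 100 FPKM or more, 53 were called lower in the authors' deposited table, with a median of -2.27, and there the subunit medians were -2.33 and -2.18.

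**Figure D3:**
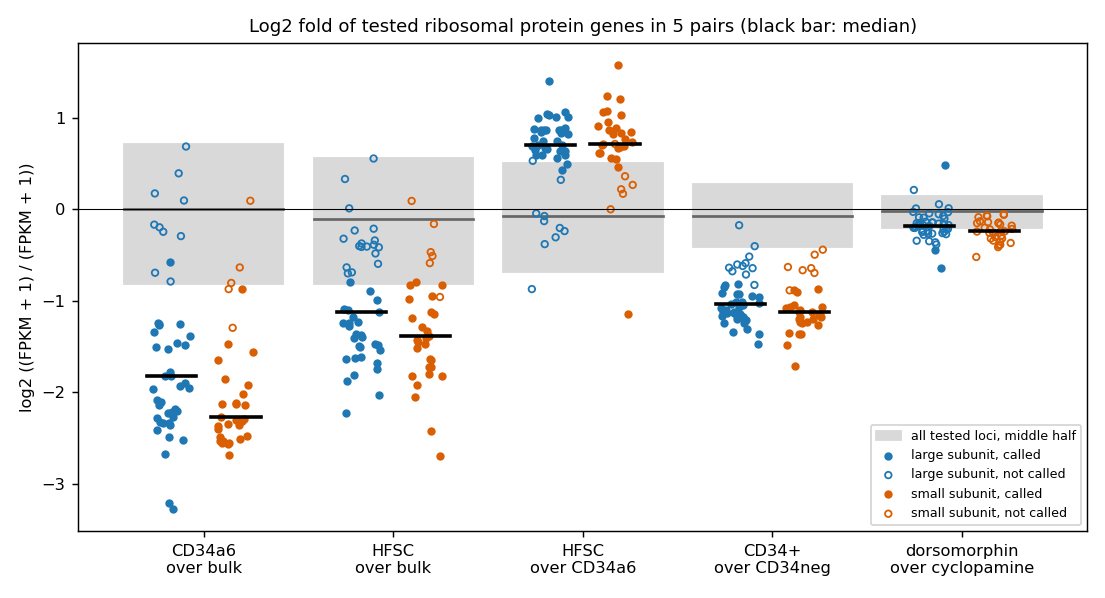
Log2 fold (FPKM plus 1) of each tested ribosomal protein gene in 5 pairs of populations, for the large (blue) and small (orange) subunit, filled where the authors called the gene; black bars are subunit medians, and grey boxes and grey lines show the interquartile range and median of all tested loci. In the first pair the medians lie at -1.83 and -2.27, and in the fourth pair, CD34+ over CD34neg, every point lies below 0.

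Of the stalk proteins, which recruit elongation factors to the ribosome, Rplp1 and Rplp0 had the lowest log2 folds of the group, -3.28 and -3.22. Rplp0 had 1013 FPKM in CD34a6 against 9418 in bulk, 9.30-fold higher in bulk. Rplp1 was at 1090 and 10584, 9.71-fold higher in bulk. Rplp2, the partner of Rplp1 in the stalk, was at 431 and 1839, a 4.26-fold difference, so the 3 stalk genes did not differ by one factor. For each of these genes the authors' deposited table gave an adjusted p of 0.000212, which goes with the smallest p it holds, 5e-05.

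Proteins around the mRNA were lower in CD34a6 as well. The authors' deposited table called Rps2, Rps3 and Rps9, which line the mRNA entry, lower with log2 folds of -2.11, -2.32 and -2.55. Of the decoding and P-site proteins, Rps15 had 1251 FPKM in CD34a6 against 6123 in bulk, and Rps18 at 785 and 4643. Rpsa, a small-subunit protein also known as a laminin receptor, was at 167 and 811 FPKM. Around the exit tunnel, 8 of 9 tested genes were called lower in the authors' deposited table, where 65 of 80 were in the whole group and 24.3% of all tested loci. Rpl39 had a log2 fold of -2.68 and Rpl4 of -1.26.

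Mutations in some of these genes cause Diamond-Blackfan anaemia, a failure of red cell production. Of this subset, in the authors' deposited table, 8 of 10 were called lower in CD34a6, where 65 of 80 were in the whole group and 24.3% of all tested loci, and their median log2 fold was -2.27. Rps19, the one most often mutated in that disease, had 1001 FPKM in CD34a6 against 5731 in bulk, and Rps7 at 16.7 and 93.0. The 2 not called were Rpl5 (20.3 and 22.9 FPKM) and Rpl11 (31.2 and 54.7 FPKM), both of the low class of 23.

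Folds in that class lay nearer 0. The 23 genes had a median log2 fold of -0.81, and the authors' deposited table called 10 of them lower. The other 57 tested genes had a median of -2.22 with 55 called. The 1 FPKM added to both values understates the folds of the lowest of the 23, such as Rps29 at 0.793 FPKM in CD34a6 and 2.13 in bulk. The 5 folds above 0 in this pair were those of Rpl10a, Rpl12, Rpl10, Rpl36a and Rps27a, all of the 23 and none called, of which Rpl10a had the highest, 0.68, at 49.5 FPKM in CD34a6 and 30.4 in bulk. Rpl10a, Rpl12, Rpl10, Rpl36a and Rps27a were far higher in the culture fractions (473 to 2706 FPKM in CD34+ cells for Rpl10, Rpl10a, Rpl12 and Rpl36a, and 333 for Rps27a).

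Short transcripts in general were lower in CD34a6. Ribosomal protein mRNAs are short, and the interquartile range of their transcript lengths among the tested genes was 560 to 968 nucleotides. Other loci within that range had a median log2 fold of -0.69 in this pair. Across 13412 other loci, Spearman's rho between fold and transcript length was 0.31, and across the 80 ribosomal protein genes it was 0.14. When the median of other loci of like length was taken off each gene, the median fold of the 80 genes was -1.42, with 71 below 0. When loci were matched on both length and mean FPKM, it was -0.78.

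**Figure D4:**
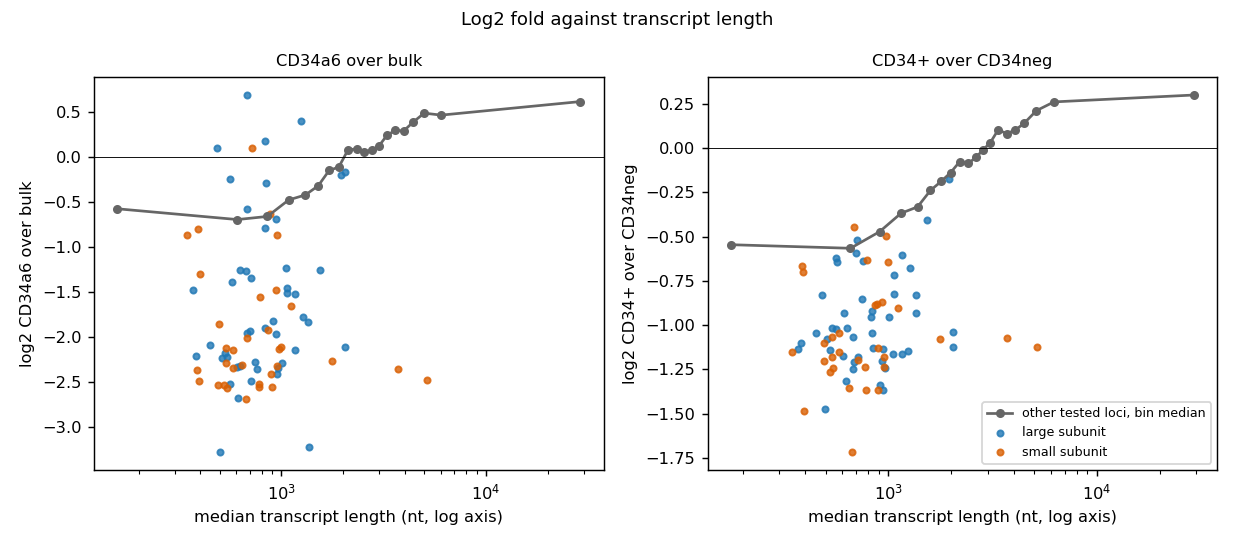
Log2 fold (FPKM plus 1) against median transcript length in nucleotides (log axis) for CD34a6 over bulk (left) and CD34+ over CD34neg (right); coloured points are ribosomal protein genes and the grey line joins the medians of other loci in 20 bins of length. In both panels the line rises with length and most coloured points lie below it, at length-adjusted medians of -1.42 and -0.58.

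The scale of the FPKM values bears on these folds, because the summed FPKM of all loci was 406723 in CD34a6, 482175 in HFSC and 917078 in bulk. With CD34a6 and bulk brought to the same sum, the median of all tested loci moved from 0.00 to 0.98 and that of the ribosomal protein genes to -0.93. On that scale 67 of 80 genes were below 0, and 0 of the 65 called genes changed sign.

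Bulk epidermis also held markers of other cells. The 5 immune markers (Ptprc, Cd74, Cd3e, H2-Aa and Cd207) summed to 316 FPKM in bulk, 5.29 in CD34a6 and 1.29 in HFSC, where Ptprc was listed at 0. The 3 erythroid markers summed to 162, 4.14 and 0.256 FPKM. The 5 proliferation markers (Mki67, Top2a, Ccnb1, Mcm2 and Pcna) ran the other way, with 124 FPKM in bulk, 303 in CD34a6 and 185 in HFSC. The 4 fibroblast markers (Col1a1, Col3a1, Pdgfra and Lum) summed to 1.53 FPKM in bulk, 22.4 in CD34a6 and 0.539 in HFSC, and the 3 melanocyte markers to 5.47, 7.99 and 0.518. Of the 4 fibroblast markers, 2 were listed at 0 in CD34a6, and only 1 was tested between CD34a6 and bulk (log2 fold 3.41). The fibroblast sum in CD34a6 is thus not shared by the whole list. Endothelial markers summed to under 1 FPKM in all 3 populations. Fewer cells of a type and less RNA per cell cannot be told apart in such bulk values, and the part of other cell types in the folds was not tested.

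Between HFSC and bulk, the group was also lower, on the HFSC side. This pair and the first share the bulk libraries, and HFSC over CD34a6 shares libraries with both, so the 3 sets of folds are not independent. Of 80 tested genes the authors' deposited table called 56 lower and 0 higher, where 24.7% of all tested loci were called lower and 19% higher. At an unadjusted p under 0.05 the deposited counts were 57 and 0. The median log2 fold was -1.24, against -0.11 for all tested loci, with -1.39 for the small and -1.12 for the large subunit. Matching on length gave -0.69 and matching on length and level -0.37.

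Small-subunit and stalk genes were among the most negative. Rps14 (1763 FPKM in HFSC, 9481 in bulk), Rplp0 (2016 and 9418), Rps19 (1378 and 5731) and Rpl37a had log2 folds of -2.43, -2.22, -2.06 and -2.03. The most negative was that of the paralogue Rps4l, -2.70, from 106 FPKM in bulk to 15.4 in HFSC. The highest folds, 0.55 for Rpl10a and 0.33 for Rpl7l1, were not called. Rpl4, a large-subunit protein whose extension lines the exit tunnel, was at 1667 FPKM in HFSC and 2184 in bulk and was not called (adjusted p = 0.284 in the authors' deposited table). This pair depends on the scale: with equal sums the median was -0.34, 55 of 80 genes were below 0, 5 of the 56 called genes changed sign, and the median of all tested loci moved from -0.11 to 0.65.

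Between the other 2 columns of that table, the group was higher in HFSC than in CD34a6. Of 78 tested genes the authors' deposited table called 61 higher and 1 lower, where 25.2% of all tested loci were called higher and 29% lower. The median log2 fold was 0.70, against -0.07 for all tested loci, and the large and small subunits had 0.70 and 0.71. Other loci of member-like length had a median of 0.12, and the length-matched median was 0.63. Matching on length and level gave 0.33. With equal sums the median was 0.46, and 68 of 78 genes were above 0, as many as without.

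Most of these folds were under 2, that is, below 1 on the log2 scale; with a 2-fold limit added, 12 genes were called higher in the authors' deposited table, where 13.5% of all tested loci were. Rplp1 rose 2.63-fold, from 1090 to 2870 FPKM, and Rplp0 1.99-fold, from 1013 to 2016. Rps26, a small-subunit protein at the mRNA exit that can be absent from some ribosomes, rose 2.09-fold, from 898 to 1877 FPKM, and Rps20 2.35-fold, from 254 to 597. Rps7 had the highest log2 fold, 1.58, from 16.7 to 51.8 FPKM, and belongs to the low class of 23. Rps14 differed from these: it was at 1467 and 1763 FPKM and was the 1 gene of 100 FPKM or more that was not called. The 1 gene called lower was Rps4l, at 35.3 FPKM in CD34a6 and 15.4 in HFSC (adjusted p = 0.000932 in the authors' deposited table). The locus given for Rps4l in this table spans 3 other annotated genes, and Rps4l itself has no annotated coding transcript.

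In the 3C cultures, every tested gene had a lower level in the CD34+ than in the CD34neg fraction. Of 78 tested genes the authors' deposited table called 60 lower and 0 higher, where 4.71% of all 11370 tested loci were called lower and 2.08% higher. At an unadjusted p under 0.05 the deposited counts were 74 and 0. The median log2 fold was -1.07 (interquartile range -1.18 to -0.86), and all tested loci had a median of -0.07. All 78 folds were below 0, from -1.72 to -0.18, and with equal sums 76 were below 0 (median -0.66; the median of all tested loci moved from -0.07 to 0.30). The spread was narrower than in the first table, and the 23 genes that were low there had a median of -1.13, next to -1.07 for the others.

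In the fractions, genes of different roles lay within this range. Rps14 had the most negative, from 648 FPKM in CD34neg to 196 in CD34+ cells, a log2 fold of -1.72. Rps21 followed with 357 and 127 FPKM (-1.49) and Rplp1 with 880 and 316 (-1.47). Of the stalk, Rplp1 and Rplp2 were called lower in the authors' deposited table, and Rplp0, at 1878 and 1057 FPKM, was not (adjusted p = 0.0547). Rps6 was at 2292 and 1245 FPKM (log2 fold -0.88), and Rpl5 and Rpl11 each had a log2 fold of -1.04. Rps19 was at 1058 and 449 FPKM, and 9 of the 10 Diamond-Blackfan anaemia genes were called lower in the authors' deposited table, where 60 of 78 were in the whole group.

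The folds nearest 0 were those of Rpl7l1 (-0.18), Rpl4 (-0.40), Rps26 (-0.44), Rps4x (-0.50) and Rpl29 (-0.52), none of which was called. Rpl4 was at 1502 FPKM in CD34+ and 1989 in CD34neg cells, and Rps4x, the X-linked copy that carries the bulk of this protein, at 1629 and 2300. Rps26 was at 814 and 1108 FPKM. The subunits differed little, with medians of -1.04 for the large and -1.13 for the small.

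Short transcripts in general also had lower levels in the CD34+ fraction. Other loci of 563 to 973 nucleotides had a median log2 fold of -0.54 in this pair, and across 10503 other loci rho between fold and transcript length was 0.44. Matched on length, the ribosomal protein genes had a median of -0.58 with 76 of 78 below 0, and matched on length and level a median of -0.41. The summed FPKM of all loci was 511143 in CD34+ and 679559 in CD34neg cells. Immune, erythroid, fibroblast, melanocyte and endothelial markers each summed to under 2 FPKM in both fractions, with 4 of the 5 immune markers listed at 0 in each, and the proliferation markers to 348 and 343 FPKM. These near-equal sums hide that 4 of the 5 proliferation markers had a fold above 0 and 1 below, with a median log2 fold of 0.38. The authors' deposited table called 2 of them higher and 0 lower in CD34+ cells, where 2.08% of all tested loci were called higher.

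Under the inhibitors, the group differed little. Of 78 tested genes the authors' deposited table called 1 higher and 2 lower with dorsomorphin, where 1.26% and 1.31% of all 11505 tested loci were called. At an unadjusted p under 0.05 the deposited counts were 1 and 23, but the share of all tested loci at that limit was not counted. The 1.26% and 1.31% are therefore no measure for these 2 counts. At an adjusted p under 0.01, 0 genes were higher and 1 was lower, against 0.591% and 0.574% of all loci. A 2-fold limit left 0 and 0, against 0.278% and 0.478%. Rpl7a, a large-subunit protein whose gene also carries small nucleolar RNAs in its introns, was at 333 FPKM with cyclopamine and 467 with dorsomorphin (log2 fold 0.49, adjusted p = 0.0247 in the authors' deposited table). Rpl34 was at 164 and 104 FPKM (log2 fold -0.64, adjusted p = 0.00479 in the authors' deposited table), and Rpl36al at 499 and 367 FPKM (log2 fold -0.44, adjusted p = 0.0320 in the authors' deposited table). In the start windows shown above, the pyrimidine run of Rpl7a spans the start, and those of Rpl34 and Rpl36al end before it.

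The remaining folds were small and mostly of 1 sign. The median log2 fold was -0.20 (interquartile range -0.27 to -0.14), against -0.02 for all tested loci, and 73 of 78 folds were below 0. Matched on length the median was -0.10, matched on length and level it was -0.18, and with equal sums it was -0.09 with 60 of 78 below 0. Rps21 (105 FPKM with cyclopamine, 73.1 with dorsomorphin), Rps12 (379 and 284) and Rps6 (1067 and 811) had log2 folds of -0.52, -0.42 and -0.40, and none of the 3 was called. After Rpl7a, the highest folds were 0.21 for Rpl22l1, 0.05 for Rpl26 and 0.01 for Rpl10. Proliferation markers summed to 244 FPKM with cyclopamine and 262 with dorsomorphin, fibroblast markers to 1.28 and 3.43 and immune markers to 0.582 and 0.410. There was no untreated culture in this table, so a change in either culture cannot be told apart from one in the other.

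The paralogues varied in their share of the pair that they form with the parent gene. Rpl22l1, whose protein can take the place of Rpl22 at the exit tunnel, had a nearly constant share in the first table: 16.7% of the summed FPKM of the pair in CD34a6, 18.6% in HFSC and 17.9% in bulk. Both members were lower in CD34a6 than in bulk, Rpl22 at 521 and 2251 FPKM and Rpl22l1 at 104 and 491. In the cultures the share was 29.5% in CD34+ and 28.1% in CD34neg cells. It was 29.9% with cyclopamine and 35.8% with dorsomorphin, where Rpl22l1 was at 180 and 208 FPKM and Rpl22 at 422 and 373. Neither gene was called in the inhibitor pair (adjusted p = 0.614 and 0.680 in the authors' deposited table).

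**Figure D5:**
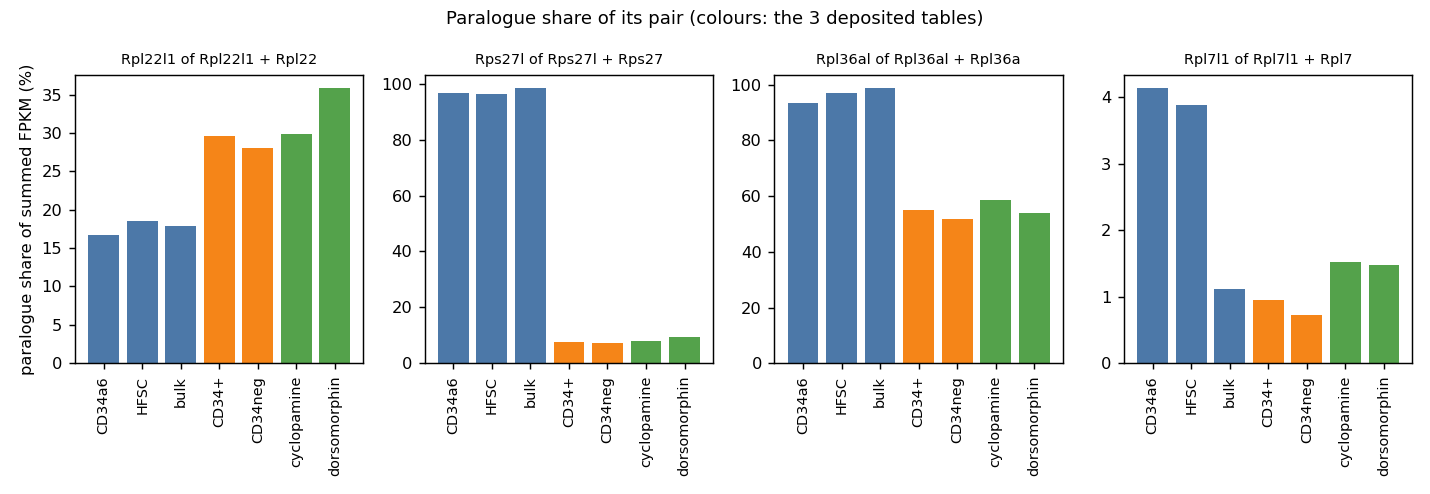
Share (%) of a paralogue in the summed FPKM of the paralogue and its parent in the 7 populations, for Rpl22l1, Rps27l, Rpl36al and Rpl7l1; colours mark the 3 tables, and each panel has its own axis from 0. Rpl22l1 lies between 16.7% and 18.6% in the first table and reaches 35.8% with dorsomorphin, while the high shares of Rps27l and Rpl36al in the first table go with parents listed under 10 FPKM.

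Rps27l, known as a p53 target, was at 112 FPKM in CD34+ and 235 in CD34neg cells, a share of 7.67% and 7.29% of its pair with Rps27. With cyclopamine and dorsomorphin the share was 8.10% and 9.57%. In the first table the share was 96.4% to 98.4%, because Rps27 was listed at 3.98 to 8.13 FPKM there. Rpl36al showed the same gap: its share was 51.6% to 58.6% in the other tables but 93.3% to 98.7% in the first, where Rpl36a was at 3.70 to 4.81 FPKM. The shares of these 2 pairs in the first table therefore rest on parents of the low class.

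The other paralogues were low. Rpl7l1 was at 35.2 to 51.2 FPKM in the first table and at 10.8 to 13.5 FPKM in the others, but its locus in the first table spans 20 other annotated genes. Rps4l was at 106 FPKM in bulk, 35.3 in CD34a6 and 15.4 in HFSC, and at 3.41 to 6.92 FPKM in the other tables. Rpl39l and Rps12l1 were under 2 FPKM in all 7 populations. Rpl3l, the muscle form of Rpl3, was listed at 0.0505 FPKM in bulk and at 0 elsewhere, and Rpl10l, the testis form of Rpl10, at 0 in all 7.

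Some ribosomal proteins and partners lie outside the name pattern. Of 6 such genes tested, the authors' deposited table called 6 lower in CD34a6 than in bulk and 5 lower in CD34+ than in CD34neg cells. Of all tested loci, 24.3% and 4.71% were called lower in these 2 pairs. Gnb2l1, which encodes the scaffold protein Rack1 on the small subunit, had 870 FPKM in CD34a6 against 5420 in bulk, and at 910 in CD34+ and 2122 in CD34neg cells. Fau, a fusion of a ubiquitin-like protein and a small-subunit protein, was at 2.63 and 10.2 FPKM in the first pair and at 248 and 591 in the fractions, so it was low in the first table only, as the 23 genes were.

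Elongation and initiation factors work on the ribosome without being part of it. Of 9 elongation factors, the authors' deposited table called 7 lower and 1 higher in CD34a6 relative to bulk, where 24.3% and 22% of all tested loci were called. Eef1a1, which delivers aminoacyl-tRNA, was at 10220 FPKM in CD34a6, 21382 in HFSC and 50787 in bulk, and Eef2, which drives translocation, at 949, 1743 and 2213. The one higher in CD34a6 was Eif5a2, at 2.89 and 0.378 FPKM. Of the 13 subunits of the initiation factor eIF3, 11 were called lower in CD34a6 than in bulk and 13 higher in HFSC than in CD34a6 in the authors' deposited table, the latter where 25.2% of all tested loci were called higher. In the culture fractions 2 of 9 elongation factors and 5 of 13 eIF3 subunits were called lower in CD34+ cells in the authors' deposited table, where 4.71% of all tested loci were, and under the inhibitors 0 of either list were called. There, 1 elongation factor and 0 eIF3 subunits had an unadjusted p under 0.05. In HFSC relative to bulk, 8 eIF3 subunits were called lower and 2 higher, where 24.7% and 19% of all tested loci were. Of 22 other initiation factors, 11 were called lower and 2 higher in CD34a6 relative to bulk, and 4 each way in HFSC. Against CD34a6, 15 of the 22 were higher in HFSC and 1 lower. In CD34+ cells 1 of the 22 was lower (4.55%, near the 4.71% of all tested loci), and under the inhibitors 0 were called.

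Genes for making ribosomes form a separate list. Of 54 tested genes for ribosome assembly and ribosomal RNA processing, the authors' deposited table called 13 lower and 0 higher in CD34a6 relative to bulk (17 and 2 at an unadjusted p under 0.05), with a median log2 fold of -0.23. The 13 are 24.1% of the list, next to 24.3% of all tested loci called lower. In HFSC, 21 were higher and 1 lower than in bulk (median 0.67), where 19% and 24.7% of all tested loci were called, although 56 ribosomal protein genes were lower there and 0 higher. Against CD34a6, 44 were higher in HFSC and 0 lower, where 25.2% and 29% of all tested loci were called, with 46 and 0 at an unadjusted p under 0.05 (median log2 fold 1.05). In the CD34+ fraction 2 of the 54 were lower (median -0.15), which is 3.70% of the list next to 4.71% of all tested loci. Under the inhibitors 0 were called, and 8 were lower at an unadjusted p under 0.05. Of the 15 genes of RNA polymerase I and its factors, which transcribe ribosomal RNA, 2 were called higher and 4 lower in CD34a6 relative to bulk in the authors' deposited table, and 3 each in HFSC. These shares, 26.7% lower in CD34a6 and 20% in each direction in HFSC, lie near those of all tested loci given above.

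Genes of the mTORC1, S6 kinase and Myc pathways act upstream of ribosome production and translation. Of 19 tested genes, 4 were called higher and 5 lower in CD34a6 relative to bulk in the authors' deposited table, and 8 higher and 5 lower in HFSC than in CD34a6. The latter are 42.1% and 26.3% of the list, where 25.2% and 29% of all tested loci were called higher and lower. In the culture fractions 0 of 18 were called in either direction (2 higher and 1 lower at an unadjusted p under 0.05), and with dorsomorphin 2 of 18 were higher and 0 lower. The shares in CD34a6 relative to bulk, 21.1% higher and 26.3% lower, lie near those of all tested loci, and the 2 genes with dorsomorphin are 11.1% of the list where 1.26% of all tested loci were called higher. They were Mxi1, an antagonist of Myc, at 14.5 FPKM with cyclopamine and 21.2 with dorsomorphin, and Eif4ebp1, a substrate of mTORC1 that binds eIF4E, at 114 and 155. The difference between these lists and the ribosomal protein genes was not tested, and transcript lengths differ between the lists.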

How the data were processed

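For each pair of populations, the authors deposited FPKM values with their log2 fold, p-value and q-value (adjusted p), and the columns are those that Cuffdiff writes, per the file headers. For 9 libraries the submitters' processing notes name HISAT 0.1.6 for alignment, StringTie 1.1.0 and Cufflinks 2.2.1 with Cuffdiff for quantification and FastQC 0.11.3 for quality checks, although the labels name TopHat2. For the other 12, whose tables the authors deposited in the same layout, the notes name DESeq2 1.8.1 and featureCounts (Subread 1.4.2) after TopHat2 2.0.13 alignment, cutadapt 1.5 trimming and FastQC 0.11.2. The build was GRCm38. Which program made the p-values of the 12 libraries is not given in the sources used here. Depth is unknown, so no counting interval is given.

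Values were assigned by the population named on each line, and repeated lines with equal values were merged. Log2 folds were recomputed with a pseudocount of 1 FPKM. Calls are the authors' (adjusted p under 0.05). Transcript length is the median over the basic transcripts of GENCODE vM21, matched by symbol for 82 of 82 genes. Length matching subtracted the median of other tested loci in 20 bins of equal size, and was tested on simulated data. Matching on length and level did so in 5 by 5 bins and was not tested on simulated data. Python 3.11.15 with pandas 2.3.3 was used.

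The genes and lists were chosen with earlier results of these data known. Genes named are the paralogues and their parents, Rplp0, Rplp1, Rplp2, Rpsa, Rps6, Rpl5, Rpl11, Rps27a, Rps19, Rpl38, Rps3, Rack1 and Fau, the 4 highest and 4 lowest of a table, the 5 highest and 5 lowest folds of a pair, and genes called against the group's direction, with the others chosen as examples after their values were seen. Not every gene of this rule is printed, and 1 is not reported here. Since no values per library were used, the planned tests were replaced by these descriptions.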

Additional observations from a re-analysis of the deposited data

How the results depend on the processing

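No paired analysis was possible because the tables hold 1 value per population; for the same reason no replicate could be left out. As these values have no spread, a count or share was counted as moved when it changed by more than 1.5-fold. A log2 median or difference was counted as moved when the fold it stands for changed by more than 1.5-fold. A change of sign was counted only for values of at least 0.1 in size. No such value changed sign. The large minus small subunit difference for HFSC over CD34a6, near 0 at -0.017, was 0.0034 in 20 bins of transcript length. For CD34a6 over bulk the median log2 fold was -0.93 with equal summed FPKM, -1.42 in 20 bins of transcript length, -1.41 in 20 bins of exonic length and -0.78 in bins of length and level. For HFSC over bulk it was -0.34 with equal sums and -0.37 in bins of length and level, and for CD34+ over CD34neg -0.41 in the latter. A 2-fold limit left 12 genes higher in HFSC than in CD34a6, and among genes of 100 FPKM or more 0 were lower. For dorsomorphin over cyclopamine, an adjusted p under 0.01 left 0 higher and 1 lower, and a 2-fold limit 0 and 0. Fewer genes can pass the stricter limits; beyond that the cause of these shifts was not tested. The other 123 values for these comparisons stayed within that range, which is wide for small log2 values. Among these 123, the HFSC over CD34a6 median went from 0.70 to 0.33 in bins of length and level. The dorsomorphin over cyclopamine median went from -0.20 to -0.09 with equal sums. The large minus small subunit difference for CD34a6 over bulk went from 0.44 to 0.15 among genes of 100 FPKM or more. Paralogue shares of Rpl3l, Rpl10l, Rpl39l and Rps12l1 moved when 1 FPKM was added, as they are near 0. The filter at 100 FPKM and the measures of exonic and coding length were chosen after seeing the data. Depth is unknown, and no detection limit can be given for genes listed at 0.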
